A study of Homo sapiens with 9 samples.

Results

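Chromatin accessibility was examined at 8 genes that encode transcription factors of the ETS family: FLI1, ETS1, ETS2, ELF1, ETV6, SPI1, GABPA and ELK3. They were chosen by name from 20090 protein-coding genes. A peak was assigned to a gene whose body, extended by 10 kb on each side, contained the centre of its interval. The 9 peak lists held 927 such peaks among 2164004 intervals, and 214 of them ranked among the first 50000 of their library by −log10 p, called the strongest peaks here. A peak's percentile is its rank by −log10 p among these 50000, from 100 for the strongest down, and a library without such a peak at a region is given 0. Merged across libraries, the strongest peaks gave 106131 regions, of which 48 lay at the 8 genes.

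The libraries were ATAC-seq libraries, in which the Tn5 transposase inserts adapters into open DNA, from K562, a human line derived from chronic myeloid leukaemia. Parental cells without a STAG2 mutation (wild type), a line heterozygous for STAG2 R614* and a line homozygous for it had 3 libraries each. R614* is a stop codon in STAG2, which encodes a subunit of the cohesin ring, and both mutant lines were made by CRISPR-Cas9 editing. The question the design addresses is whether accessibility differs between the genotypes. Each genotype is 1 line, and the homozygous cells grew attached and were detached with trypsin, so genotype, line and growth cannot be told apart. Each library came from 50000 cells, read as single ends of 100 bp. The labels do not say that the 3 libraries of a genotype came from separate cultures, so the tests measure the spread between libraries, which may be technical. The genotypes are those of the labels, since peaks carry no base calls.

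ETS factors share the ETS domain, which binds DNA at a GGAA core, and differ in their partners and in whether they activate or repress. In blood cells FLI1, SPI1, ETV6 and ELF1 act at many lineage genes, often beside GATA1, TAL1 and RUNX1. K562 cells have an erythroid and megakaryocytic character, a setting in which SPI1, a driver of the myeloid and B lineages, is known to oppose GATA1. GABPA pairs with a separate activating subunit at promoters of housekeeping and mitochondrial genes, and ELK3 binds with SRF and responds to MAP kinase signalling.

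Some lists shared intervals with the same start and end. Wild type replicate 3 and heterozygous replicate 1 shared 46.0% of the shorter list, including 39 of 108 intervals at the 8 genes (36.1%). Wild type replicates 1 and 2 shared 23.2%, including 8 of 85 intervals at these genes (9.41%), and heterozygous replicates 2 and 3 shared 1.17%. In the other 33 pairs the share was 0.223% to 0.351%. For the regions with the smallest exact permutation p, and for some other results, values are therefore given also by source. There the lists of each sharing pair are averaged, which leaves 7 sources, or 1 library is kept from each pair. The lists held 181579 to 319986 intervals and no read counts, so depth is unknown, and −log10 p at rank 50000 ran from 4.95 to 6.73. Of 10 erythroid marker genes, 4 had a strongest peak at a promoter in all 9 libraries and 2 (GATA1 and KLF1) in 0. Of 17 markers of other cell types, 2 (COL1A1 and COL1A2) had one in all 9 and 12 in 0. The weakest peak counted at the 8 genes ranked 45731 to 49707 in its library, and the strongest one left out ranked 50032 to 55242.

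The sequences of 4 distal regions are given first, because their percentiles differed most clearly between genotypes. Each is the plus strand of the GRCh37 reference in a window of up to 300 bp around the middle of the region, free of exons. Capitals mark a motif found on either strand. The AP-1 motif was searched as TGANTCA, in which N is any base. The GATA motif was searched as AGATAA. The core of a CTCF site was searched as AGNGGGC. The windows span chr12:96636462-96636761 and chr12:96609120-96609419 in ELK3, chr11:128672562-128672861 in FLI1 and chr13:41548955-41549254 in ELF1.
ELK3 intron, 48459 bp from the start: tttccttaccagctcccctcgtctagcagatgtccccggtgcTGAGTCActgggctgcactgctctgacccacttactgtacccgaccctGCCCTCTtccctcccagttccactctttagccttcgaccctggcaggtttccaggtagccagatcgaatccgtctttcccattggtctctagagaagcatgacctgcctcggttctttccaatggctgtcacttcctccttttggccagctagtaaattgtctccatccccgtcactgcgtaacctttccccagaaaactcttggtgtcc
ELK3 intron, 21117 bp from the start: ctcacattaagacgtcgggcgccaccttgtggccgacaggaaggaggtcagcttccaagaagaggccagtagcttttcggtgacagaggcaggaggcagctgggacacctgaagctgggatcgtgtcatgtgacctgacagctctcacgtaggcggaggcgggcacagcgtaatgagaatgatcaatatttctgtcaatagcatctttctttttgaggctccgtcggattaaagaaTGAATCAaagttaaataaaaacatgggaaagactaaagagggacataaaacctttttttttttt
FLI1 intron, 116282 bp from the start: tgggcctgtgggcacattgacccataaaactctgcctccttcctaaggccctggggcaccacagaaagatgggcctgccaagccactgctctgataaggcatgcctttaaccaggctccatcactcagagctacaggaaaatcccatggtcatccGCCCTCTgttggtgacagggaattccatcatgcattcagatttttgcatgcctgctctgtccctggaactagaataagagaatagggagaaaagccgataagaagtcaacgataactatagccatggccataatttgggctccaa
ELF1 intron, 86471 bp from the start: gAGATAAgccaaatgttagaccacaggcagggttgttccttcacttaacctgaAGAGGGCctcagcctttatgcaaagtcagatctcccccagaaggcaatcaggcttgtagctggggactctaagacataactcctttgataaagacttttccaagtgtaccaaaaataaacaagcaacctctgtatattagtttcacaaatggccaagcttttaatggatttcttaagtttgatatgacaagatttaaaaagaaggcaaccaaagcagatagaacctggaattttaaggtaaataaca
Both ELK3 windows hold TGANTCA, as TGAGTCA in the first and TGAATCA in the second. The first ELK3 window, the FLI1 window and the ELF1 window hold AGNGGGC. Only the ELF1 window of the 4 holds AGATAA. Other spellings of these motifs were not searched, so a window without a match may still hold a site. A match is a match of letters and not evidence of binding.

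Over the 48 regions, 10 were promoter regions, with their middle within 1 kb of the start of a protein-coding transcript, and 38 were distal. Among promoter regions 6 of 10 were among the strongest peaks of all 9 libraries, against 56.1% of all 14536 promoter regions. Of the distal regions 4 of 38 were, against 12.1% of all 91595 distal regions. In total 10 of 48 regions were in all 9 libraries, against 18.1% of all regions, and 13 were in 1 library, against 30.4%. The number of strongest peaks at the 8 genes together averaged 22.7 ± 3.79 for wild type, 24 ± 2.65 for the heterozygous line and 24.7 ± 2.31 for the homozygous line (SD, n = 3 each), with overlapping ranges of 20 to 27, 21 to 26 and 22 to 26.

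**Figure D1:**
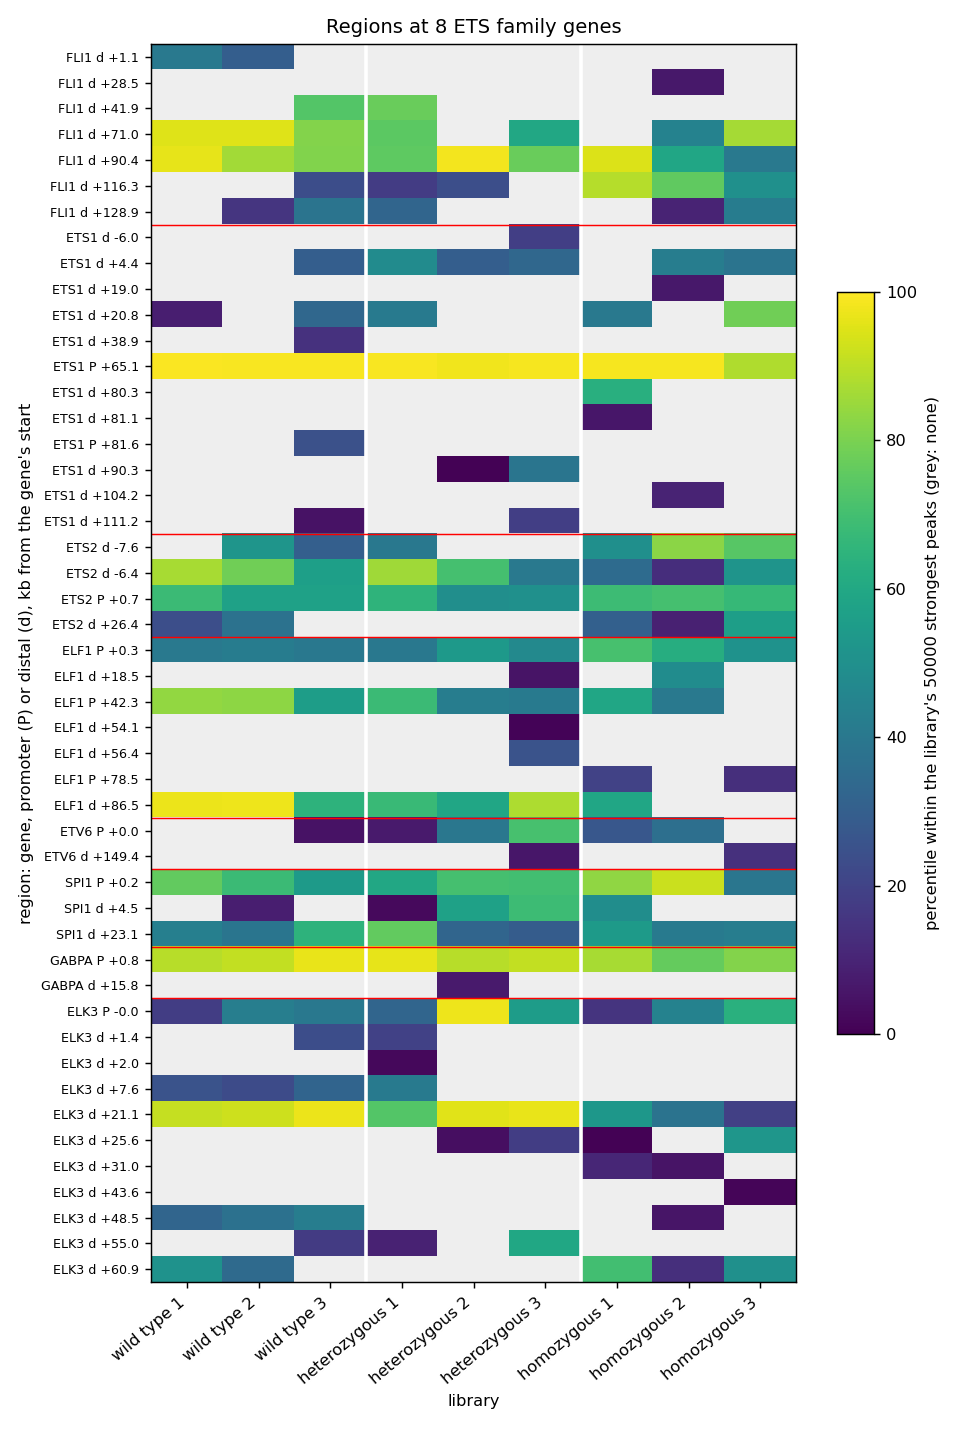
Percentile of each of the 48 regions (rows, by gene and by kb from the gene's start, P for promoter and d for distal) within the 50000 strongest peaks of each of the 9 libraries (columns), on a colour scale from 0 to 100, with grey where a library had no such peak. The rows filled in all 9 columns are 10 of 48, and the ETS1 internal promoter is the brightest row.

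The 8 genes differed in how densely they carried strongest peaks. Per 100 kb of gene and flanks, the mean over the 9 libraries was 8.10 for ETS2, 5.85 for SPI1, 5.12 for ELK3, 2.53 for ELF1, 2.5 for FLI1, 2.31 for ETS1, 2.30 for GABPA and 0.335 for ETV6. The median over all protein-coding genes was 2.92. ELF1, FLI1, ETS1 and GABPA thus lay close together, just under the median gene, and ETV6 lay far under it.

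ELK3, a ternary complex factor that represses its targets until ERK phosphorylates it, had a region at which all 3 wild type libraries exceeded all 6 mutant ones. ELK3 (ENSG00000111145, chr12:96588153-96663602, plus strand) held 11 regions, and its strongest peaks numbered 5, 5 and 6 in the wild type, 6, 3 and 4 in the heterozygous and 5, 5 and 5 in the homozygous libraries, replicates 1 to 3 in each case. The exact permutation test over the 3 genotypes gave p = 0.607 for this number, and the groups overlapped. No difference in number was detected, while single sites differed in presence or level. Values below are in the order of replicates 1 to 3 within each genotype, and 3 libraries against 3 would allow an exact permutation p of 0.1 at best.

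At the intronic region chr12:96636292-96636932, the percentile was 32.5, 37.4 and 42.5 in the wild type libraries, 0, 0 and 0 in the heterozygous libraries and 0, 5.5 and 0 in the homozygous libraries. All 3 wild type libraries were above all 6 mutant libraries, of which 5 had no peak there among their strongest. All 9 full lists held a peak there, with the authors' fold enrichment over local background at 5.38, 5.77 and 6.07 in the wild type libraries, 4.02, 4.28 and 3.35 in the heterozygous libraries and 3.01, 4.21 and 4.14 in the homozygous libraries. The percentile gave an exact permutation p of 0.0357 over the 3 genotypes, which became 0.373 after Benjamini-Hochberg adjustment over all 106131 regions. In limma, with the same adjustment, the difference from wild type was −35.6 ± 3.34 points in the homozygous line (SE, adjusted p = 0.00175) and −37.5 points in the heterozygous line (adjusted p = 0.0441). The 5 mutant libraries without a strongest peak entered limma as 0, so its SE and p leave out the spread between them. Percentiles in the full lists were 84.9, 89.7 and 90 in wild type, 71.6, 72.4 and 40.9 in heterozygous and 27.2, 76.2 and 77.2 in homozygous libraries. The heterozygous call was lost in limma without any 1 of 7 of the 9 libraries, at an adjusted p of up to 0.155 without wild type replicate 2, and held without wild type replicate 3 or heterozygous replicate 1. The limma call over the 3 genotypes held with each of the 9 libraries left out in turn, and with 1 library per source its adjusted p was 0.0274 (0.0469 for heterozygous against wild type). With lists averaged by source, homozygous libraries against all other sources gave an exact permutation p of 0.429, a comparison that sets the heterozygous libraries beside wild type.

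At chr12:96608854-96609685, also intronic, the percentile was 91.3, 92.2 and 97.2 in the wild type libraries, 73.2, 95.6 and 96.8 in the heterozygous libraries and 53, 38 and 18.9 in the homozygous libraries. The 3 homozygous libraries were the 3 lowest of the 9, and heterozygous libraries overlapped wild type. The authors' fold enrichment was 10.7, 11 and 14 in the wild type libraries, 7.62, 12 and 12.7 in the heterozygous libraries and 5.77, 4.91 and 5.27 in the homozygous libraries, again lowest in the homozygous libraries. The exact permutation p was 0.0286 (adjusted 0.373), and with sources counted once it was 0.0286, the smallest that 35 assignments can give. The limma difference between homozygous and wild type was −57 ± 9.64 points (SE, adjusted p = 0.0223). The limma call over the 3 genotypes (adjusted p = 0.0331) held without wild type replicate 3, heterozygous replicate 1 or homozygous replicate 1, and was lost without any of the other 6 libraries. With 1 library per source its adjusted p was 0.0816.

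The remaining named ELK3 regions differed in presence between genotypes or were shared by all. The region chr12:96595497-96596012 had percentiles of 25.6, 22.8 and 32.2 in the wild type libraries, 41.2, 0 and 0 in the heterozygous libraries and 0, 0 and 0 in the homozygous libraries. It was in all 3 wild type libraries and in 0 of 3 homozygous ones, and heterozygous replicate 1, which shares intervals with wild type replicate 3, was the only mutant library to have it. The exact permutation p was 0.143 (adjusted 0.682), and 0.429 with sources counted once. The limma adjusted p over the 3 genotypes was 0.435, and 0.0166 with 1 library per source. That fit leaves out heterozygous replicate 1, so every mutant value in it is the assigned 0, without spread. The region chr12:96648657-96649442 had 50.8, 34.5 and 0 in the wild type libraries, 0, 0 and 0 in the heterozygous libraries and 69.6, 13.3 and 50.2 in the homozygous libraries, so it was in all 3 homozygous and 0 of 3 heterozygous libraries, while wild type was split. The ELK3 promoter at chr12:96587015-96589224 was open in all 9 libraries, at 18.3, 42.7 and 40.2 in the wild type libraries, 32.5, 97.6 and 55.3 in the heterozygous libraries and 14.9, 44.4 and 63.6 in the homozygous libraries, with overlapping groups and an exact permutation p of 0.4. Its highest value, in heterozygous replicate 2, was far from those of the other heterozygous libraries.

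**Figure D2:**
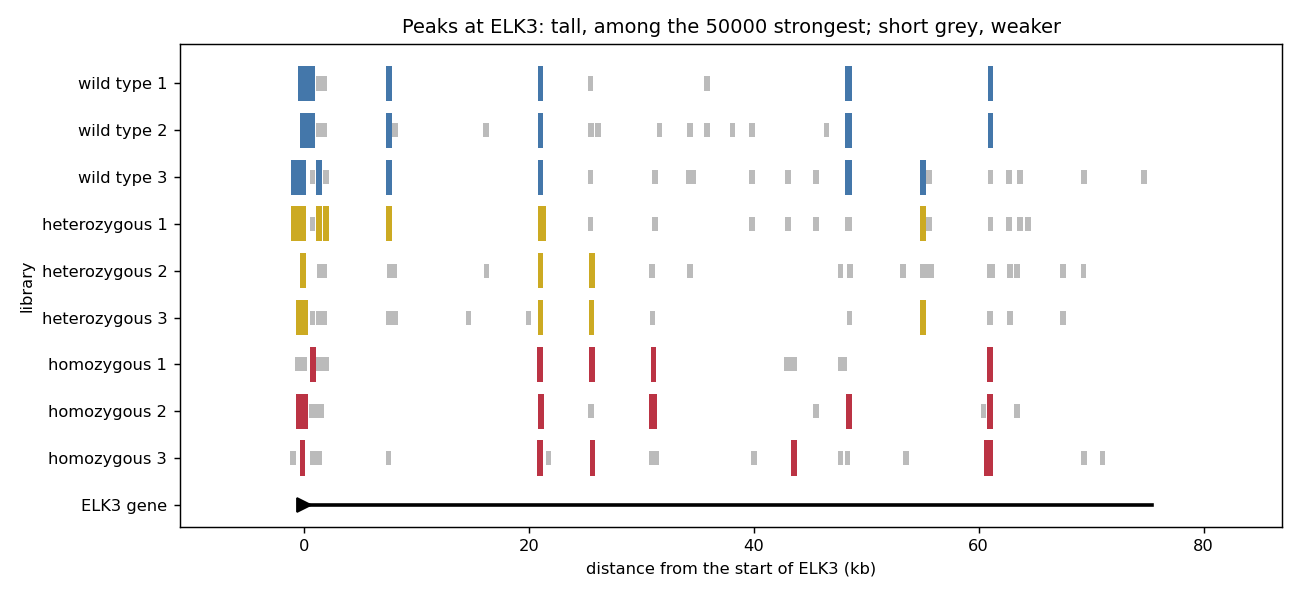
Peaks of each library (rows) along ELK3, by distance from the gene's start in kb, with tall coloured bars for peaks among the 50000 strongest, short grey bars for weaker peaks, and the gene as a black line with its start at 0. Tall bars near 48.5 kb appear in the 3 wild type libraries and in homozygous replicate 2, and near 7.6 kb in the 3 wild type libraries and heterozygous replicate 1.

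FLI1, an activator of megakaryocytic and endothelial genes, had strongest peaks in its introns and just downstream of the gene and none centred within 1 kb of a FLI1 start site. FLI1 (ENSG00000151702, chr11:128556430-128683162, plus strand) carried 4, 4 and 5 in the wild type, 5, 2 and 2 in the heterozygous and 2, 5 and 4 in the homozygous libraries (exact permutation p = 0.646), and the groups overlapped. The intronic region nearest the start, chr11:128557234-128557735, lies outside the rule for named regions. It overlapped that window with its centre 1055 bp from the start, and was a strongest peak in wild type replicates 1 and 2 only, at 40.5 and 29.9. In the full lists every library did have a FLI1 promoter peak, with a best percentile between 4.26 and 80.2 of the whole list. Between 21 and 35 peaks of any strength lay at the gene, close to the 23 to 32 at ETS1.

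The intronic region chr11:128672428-128672996 was higher in the homozygous line. It lies outside the rule for named regions and was chosen after its values were seen. Its percentile was 0, 0 and 23.5 in the wild type libraries, 17.8, 24.1 and 0 in the heterozygous libraries and 88.7, 75.5 and 50.0 in the homozygous libraries, so each homozygous library was above all 6 others. The exact permutation p was 0.025 (adjusted 0.373), and 0.0286 with sources counted once. By limma the homozygous libraries were 63.6 ± 11.8 points higher than wild type (SE, adjusted p = 0.0319). Libraries without a strongest peak there entered limma as 0, although all 9 full lists held a peak. Percentiles in the full lists were 62.2, 81.8 and 86.7 in wild type, 83.8, 80.7 and 73.8 in heterozygous and 96.9, 93.8 and 92.2 in homozygous libraries. The authors' fold enrichment was 3.84, 4.39 and 5.27 in wild type, 5.13, 5.07 and 4.49 in heterozygous and 8.67, 6.76 and 6.47 in homozygous libraries. The limma call over the 3 genotypes (adjusted p = 0.0483) held without wild type replicate 3 or homozygous replicate 3 and was lost without any of the other 7 libraries, and with 1 library per source its adjusted p was 0.206.

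By mean over all 9 libraries, 2 other intronic regions of FLI1 ranked higher, although not in the homozygous libraries alone. The region chr11:128646265-128647352 was in all 9 libraries, at 96.1, 86.1 and 80.9 in the wild type libraries, 75.3, 98.2 and 77.2 in the heterozygous libraries and 94.5, 59.3 and 40.3 in the homozygous libraries, with overlapping groups (exact permutation p = 0.293). The region chr11:128627068-128627774 had 95.2, 95 and 81.6 in the wild type libraries, 74.8, 0 and 59.99 in the heterozygous libraries and 0, 44.4 and 86.6 in the homozygous libraries. All 3 wild type libraries were above the heterozygous ones, and homozygous replicate 3 overlapped them (exact permutation p = 0.243). A further region, chr11:128598090-128598589, also lies outside the rule for named regions. It was among the strongest peaks only of wild type replicate 3, at 73.3, and heterozygous replicate 1, at 77.3, the pair of lists that shares most intervals.

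SPI1, which encodes PU.1, had an open promoter in all 9 libraries. SPI1 (ENSG00000066336, chr11:47376411-47400098, minus strand) carried 2, 3 and 2 in the wild type, 3, 3 and 3 in the heterozygous and 3, 2 and 2 in the homozygous libraries (exact permutation p = 0.357). Its promoter region chr11:47398976-47400784 was at 76.1, 68.1 and 54.4 in the wild type libraries, 59.9, 70.7 and 69.8 in the heterozygous libraries and 83.4, 92 and 39.3 in the homozygous libraries, and the homozygous libraries held both the highest and the lowest value of the 9 (exact permutation p = 0.914). A distal region over an exon at chr11:47376608-47377424, closer to the start of the neighbouring gene MYBPC3 than to that of SPI1, was also in all 9, between 29.1 and 76.1. An intronic region at chr11:47395345-47395887 was in 5 libraries, at 0, 8.39 and 0 in the wild type libraries, 2.58, 57.1 and 68.4 in the heterozygous libraries and 48.8, 0 and 0 in the homozygous libraries, and no genotype had it in 0 of 3 libraries.

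ETV6, a repressor needed in marrow stem cells and a frequent partner in leukaemic fusions, had the fewest strongest peaks per 100 kb of the 8. ETV6 (ENSG00000139083, chr12:11802608-12048311, plus strand) carried 0, 0 and 1 in the wild type, 1, 1 and 2 in the heterozygous and 1, 1 and 1 in the homozygous libraries, a mean under 1, so it was not tested among all genes. Its promoter chr12:11801787-11803501 was at 0, 0 and 4.74 in the wild type libraries, 7.12, 39.8 and 70.8 in the heterozygous libraries and 27.2, 36.6 and 0 in the homozygous libraries. Only 1 wild type library had it among its strongest peaks, against 3 heterozygous and 2 homozygous ones (exact permutation p = 0.132). All 9 full lists held a promoter peak, with the authors' fold enrichment between 4.04 and 7.46. The full lists gave 4, 5 and 5 in the wild type, 5, 4 and 8 in the heterozygous and 7, 9 and 14 in the homozygous libraries, where the homozygous counts all exceeded the wild type ones and overlapped the heterozygous ones (exact permutation p = 0.0679, adjusted 0.43). Its 1 distal region, chr12:11951651-11952336, in an intron, was a strongest peak in heterozygous replicate 3 at 5.89 and homozygous replicate 3 at 13.7 only.

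ELF1, an activator of blood cell genes, had strongest peaks numbering 3, 3 and 3 in the wild type, 3, 4 and 7 in the heterozygous and 5, 4 and 2 in the homozygous libraries (exact permutation p = 0.486). ELF1 (ENSG00000120690, chr13:41506060-41635576, minus strand) has several start sites, and its regions had differences of either sign. At the intronic region chr13:41548686-41549523, the percentile was 96.9, 97.6 and 64.7 in the wild type libraries, 67.9, 59.2 and 87.6 in the heterozygous libraries and 59, 0 and 0 in the homozygous libraries. The homozygous libraries were the 3 lowest of the 9, the first of them only just under heterozygous replicate 2. The 2 homozygous libraries without a strongest peak still had weaker ones in their full lists, and the authors' fold enrichment was 13.5, 14.4 and 7.68 in the wild type libraries, 7.97, 6.8 and 10.1 in the heterozygous libraries and 6.18, 3.99 and 4.5 in the homozygous libraries. The exact permutation p was 0.025 (adjusted 0.373), and 0.0286 with sources counted once. In limma the homozygous minus wild type difference was −66.7 ± 18 points (SE, adjusted p = 0.117).

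At the ELF1 promoters the signs differed too. An internal promoter at chr13:41592663-41593791 had 83.9, 83.2 and 55.5 in the wild type libraries, 68, 42.3 and 41.3 in the heterozygous libraries and 59, 40.4 and 0 in the homozygous libraries, with overlapping groups (exact permutation p = 0.146). The promoter at the start of the gene, chr13:41634195-41636450, which lies outside the naming rule and was chosen after its values were seen, had 40.3, 41.8 and 40.2 in the wild type libraries, 40.1, 54.1 and 47.1 in the heterozygous libraries and 70.9, 62.3 and 50.8 in the homozygous libraries. All 3 homozygous values there were above the wild type ones, 61.3 ± 10.0 against 40.8 ± 0.899 (SD, n = 3), and 1 of them was under heterozygous replicate 2. The exact permutation p was 0.05 (adjusted 0.449), and 0.0857 with sources counted once. A second distal region of ELF1, chr13:41616795-41617316, in an intron, was a strongest peak in heterozygous replicate 3 at 5.39 and homozygous replicate 2 at 48.7 only.

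ETS1, best known in lymphoid and endothelial cells, had the strongest single site of the 8 genes. ETS1 (ENSG00000134954, chr11:128328656-128457453, minus strand) carried 2, 1 and 6 in the wild type, 3, 3 and 5 in the heterozygous and 4, 4 and 3 in the homozygous libraries (exact permutation p = 0.904), and wild type alone spanned the whole range. The site was an internal promoter at chr11:128391860-128392923, 65061 bp from the start of the gene, at 99.3, 99.1 and 99.1 in the wild type libraries, 99.2, 97.7 and 98.6 in the heterozygous libraries and 98.6, 98.6 and 88.2 in the homozygous libraries. Of the 9 libraries 8 placed it at 97.7 or higher, and homozygous replicate 3 was the exception (exact permutation p = 0.261). The remaining 11 ETS1 regions were weaker, and 7 of the 12 were in 1 library only. The best distal ones, at chr11:128452697-128453481 and chr11:128436366-128436899, were in 6 and 5 libraries with mean percentiles of 24.7 and 22.4.

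ETS2, a close relative of ETS1 that is switched on by MAP kinase phosphorylation, had strongest peaks numbering 3, 4 and 3 in the wild type, 3, 2 and 2 in the heterozygous and 4, 4 and 4 in the homozygous libraries. All homozygous libraries had 4, and the heterozygous libraries had no more than 3, with wild type between and overlapping both. ETS2 (ENSG00000157557, chr21:40177107-40196879, plus strand) was the 1 gene of the 7 tested with an unadjusted exact permutation p under 0.05, as 8.56% of all 15228 tested genes had. Its exact permutation p was 0.0429 (adjusted 0.512 over 15228 genes), and with sources counted once the exact permutation p was 0.0571. With the same number of peaks taken per chromosome in every library, the homozygous minus wild type difference went from 0.667 to 0 peaks (exact permutation p = 0.454), and with full lists it was 0 as well (exact permutation p = 0.379).

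Upstream of ETS2, at chr21:40170329-40171129, the percentile was 86.8, 78.5 and 56.5 in the wild type libraries, 85.7, 70.5 and 40.4 in the heterozygous libraries and 35.1, 13.1 and 51.8 in the homozygous libraries. No homozygous library reached the wild type values, and the heterozygous libraries overlapped both (exact permutation p = 0.111). The ETS2 promoter at chr21:40176874-40178811 ranged between 49.6 and 70.7 (exact permutation p = 0.1). A region downstream at chr21:40202976-40203984, inside the gene model ENSG00000205622, had 24.1, 37.8 and 0 in the wild type libraries, 0, 0 and 0 in the heterozygous libraries and 30.7, 9.03 and 56 in the homozygous libraries, in all 3 homozygous and 0 of 3 heterozygous libraries.

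GABPA, the DNA-binding subunit of GABP, had 1 main site, its promoter, which it shares with the divergent gene ATP5PF. GABPA (ENSG00000154727, chr21:27106881-27144771, plus strand) carried 1, 1 and 1 in the wild type, 1, 3 and 1 in the heterozygous and 2, 1 and 1 in the homozygous libraries (exact permutation p = 1). The shared promoter chr21:27106292-27108997 was at 89.3, 90.7 and 96.7 in the wild type libraries, 96.4, 89.3 and 90.8 in the heterozygous libraries and 87, 76.4 and 81.6 in the homozygous libraries. The homozygous libraries were the 3 lowest, at 81.6 ± 5.31 against 92.3 ± 3.92 in wild type (SD, n = 3). The exact permutation p was 0.0464 (adjusted 0.436), and 0.0286 with sources counted once. Accessibility of ATP5PF and of GABPA cannot be told apart there. The 1 distal region of GABPA, chr21:27122416-27122915, in an intron, was a strongest peak in heterozygous replicate 2 only, at 7.39.

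**Figure D3:**
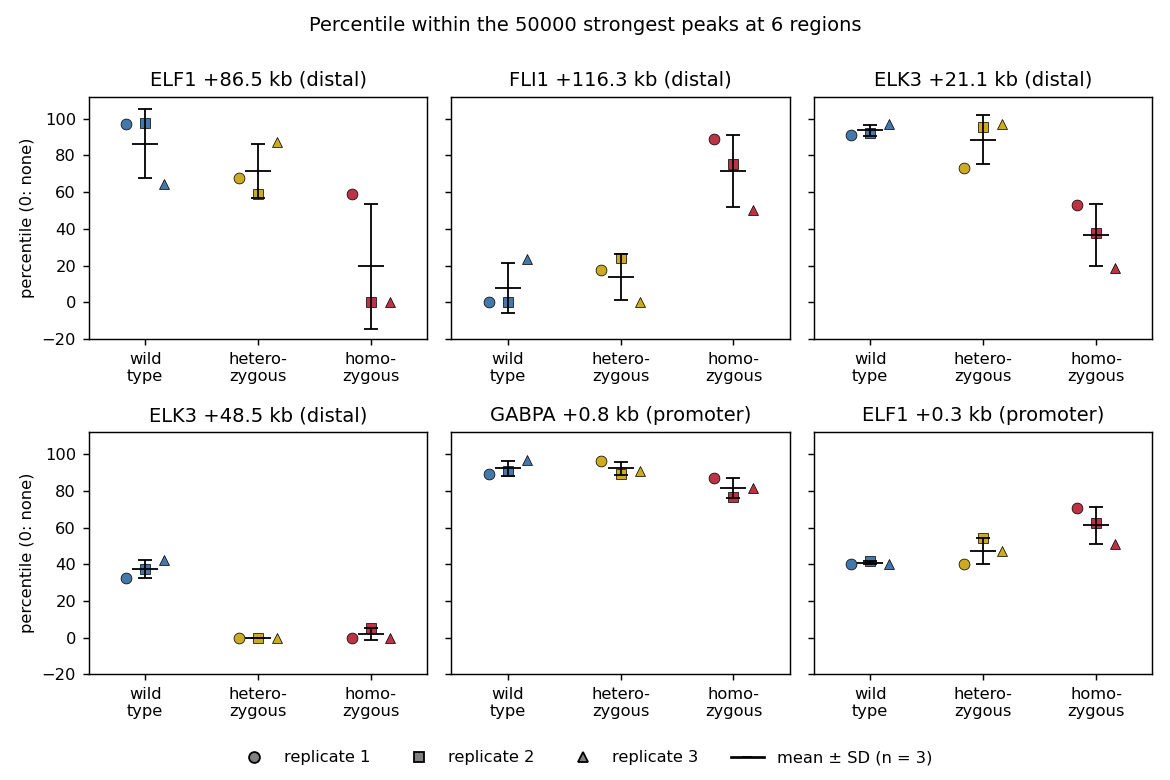
Percentile (0 where there was no peak among the 50000 strongest) at 6 regions, 1 panel each, by genotype, with a marker for each library by replicate and a bar for the mean and SD (n = 3). The 6 have the smallest exact permutation p of the 48. The homozygous libraries are the 3 lowest at ELF1 +86.5 kb, ELK3 +21.1 kb and GABPA +0.8 kb and the 3 highest at FLI1 +116.3 kb.

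The shares of strongest peaks per chromosome differed as well, on the chromosomes of ETS2, GABPA and ELF1 (p-values not adjusted). Chromosome 21, with ETS2 and GABPA, held a share of 0.827 ± 0.0114% for wild type, 0.851 ± 0.011% for the heterozygous line and 1.04 ± 0.0404% for the homozygous line (SD, n = 3, exact permutation p = 0.00357, the smallest possible). Chromosome 13, with ELF1, held 2.02 ± 0.117%, 2.11 ± 0.0501% and 1.87 ± 0.0652% (exact permutation p = 0.0393). For chromosomes 11 and 12 the exact permutation p was 0.518 and 0.346. With the same number of peaks per chromosome in every library, the ETS2 difference in peak number was 0, as given above, while the ELF1 and GABPA differences remained 0.667 and 0.333. The homozygous minus wild type percentile under that setting was −10.6 at the GABPA promoter (exact permutation p = 0.0464) and −66.7 at the ELF1 region 86471 bp from the start (exact permutation p = 0.025), the values found without it. Percentiles under that setting were still ranked over all chromosomes together. It exchanges mainly the weakest peaks of a list, so it could move these percentiles little and does not test them.

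**Figure D4:**
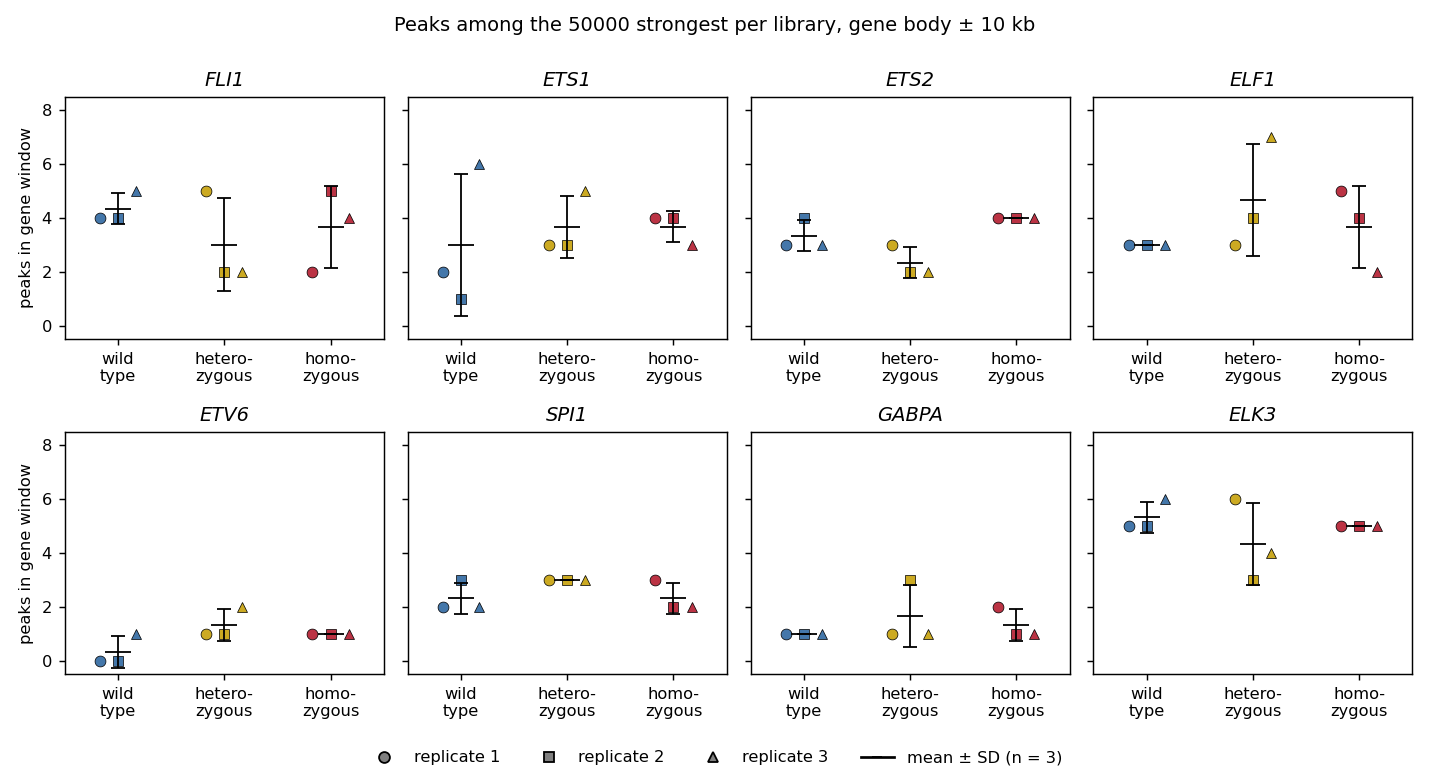
Number of peaks among the 50000 strongest in the gene body and 10 kb on each side, for each of the 8 genes (panels) by genotype, with a marker for each library and a bar for the mean and SD (n = 3). The homozygous ETS2 libraries all have 4 peaks, above the heterozygous ones, and wild type overlaps both. At the other 7 genes all genotypes overlap.

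For the homozygous line against wild type, 42 of the 48 regions were present in at least 1 of the 6 libraries, and 1 of them was in 3 of 3 libraries of one genotype and 0 of 3 of the other, against 6.22% of all such regions (2.75% in the homozygous line, 3.47% in wild type). It was ELK3 at chr12:96595497-96596012, present in wild type. Percentiles did not overlap in 2 regions that were higher and 7 that were lower in homozygous libraries, against 7.37% and 9.31% of all regions. For the heterozygous line against wild type, presence differed at 1 of 40, against 0.937% of all (0.423% in the heterozygous line, 0.515% in wild type), and the region was ELK3 at chr12:96636292-96636932. Percentiles did not overlap in 4 of 40, against 7.34%, with 2 higher and 2 lower in the heterozygous line, against 3.68% and 3.66%. For the homozygous against the heterozygous line, presence differed at 2 of 45, against 6.57% of all (3.16% in the homozygous line, 3.41% in the heterozygous). Both were present in the homozygous libraries: ELK3 at chr12:96648657-96649442 and ETS2 at chr21:40202976-40203984. Percentiles did not overlap in 5 that were higher and 3 that were lower in the homozygous libraries, against 7.54% and 8.97%. These comparisons share libraries.

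Dropping wild type replicate 3 raised the heterozygous count of regions differing in presence from 1 to 6 of 38 and the homozygous one from 1 to 3 of 36, while the share of all regions rose to 10.1% and 12.5%. Dropping heterozygous replicate 1 raised the heterozygous count to 4 of 39, against 5.73% of all. Those 2 lists share intervals. Without wild type replicate 2, which shares intervals with replicate 1, the heterozygous count was 2 of 40, against 1.25% of all. The count between the mutant lines was 4 without heterozygous replicate 1 (10.3% of all) or without homozygous replicate 1 (10.4% of all). With homozygous replicate 1, 2 or 3 left out, the count against wild type was 2, 4 and 2, against 10.1%, 10.4% and 9.88% of all.

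Across all regions, the exact permutation test called 0 of 106131 after adjustment and 11292 (10.6%) at an unadjusted p under 0.05, with 5 of the 48 among the latter. Its smallest p of 0.00357 would have been needed in 7581 regions for 1 call and was reached in 802. A region that differed in the homozygous libraries alone, with equal values elsewhere, cannot go below an exact p of 0.0357. By limma, a test added after the data were seen, 3685 regions (3.47%) were called over the 3 genotypes, a number that was 8379 without wild type replicate 3 and 2180 without wild type replicate 1. They included 3 of the 48, the ELK3 regions 48459 and 21117 bp from the gene's start and the FLI1 region 116282 bp from its start. With 1 library per source, limma called 3162 regions, among them 2 of the 48, the ELK3 regions 7602 and 48459 bp from the start. For peaks per gene the exact test called 0 of 15228 genes, with 1303 (8.56%) at an unadjusted p under 0.05, and limma called 470, of which 0 were among the 7 tested here.

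The mean percentile was higher in homozygous than in wild type libraries at 23 of the 48 regions, lower at 19 and equal at 6. The median difference was 0 for the 48 and 0 for all regions, and its median size was 9.41 and 9.91 points. The plot of these differences shows a few large ones in each direction on a broad background.

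**Figure D5:**
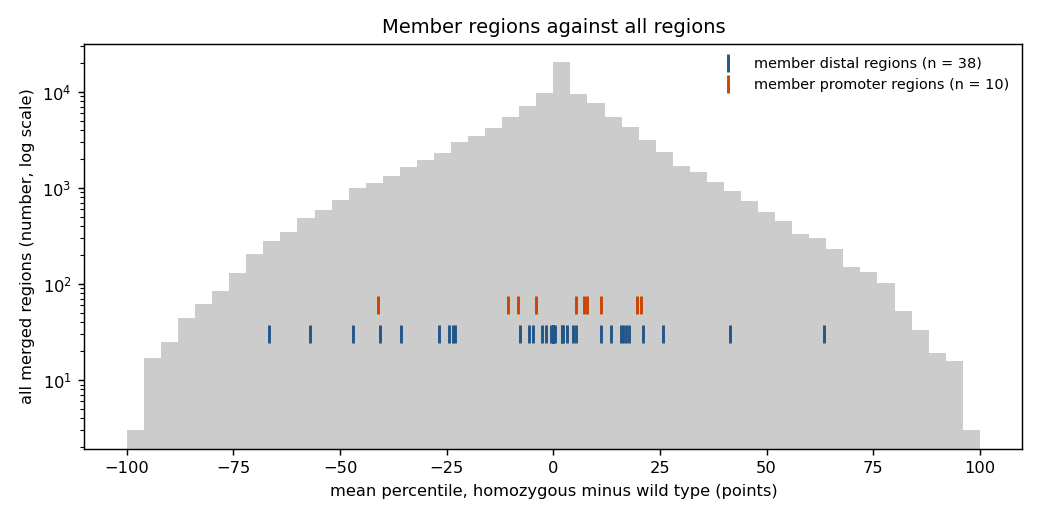
Mean percentile in homozygous minus wild type libraries, in points, for the 38 distal and 10 promoter regions at the 8 genes (ticks) on a histogram of all 106131 regions, whose number per bin is on a log scale. The ticks lie within the body of the histogram, from -66.7 to 63.6.

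In the 300 bp around the middle of each region, the ETS letters CCGGAAG were found in 0 of 10 promoter and 0 of 38 distal regions, against 12.3% and 1.85% of all regions of each kind. The AP-1 letters TGANTCA were in 11 of 38 distal regions (28.9%), against 18.9%. The CTCF core AGNGGGC was in 12 of 38 (31.6%), against 19.6%, and in 1 of 10 promoters, against 38.9%. AGATAA was in 6 of 38 distal regions, against 22.4%, and the RUNX letters TGTGGTT in 2, against 7.28%. Among promoter regions AGATAA was in 2 of 10, against 6.45%, while TGANTCA and TGTGGTT were in 0 of 10, against 5.81% and 3.01%. The search used both strands, and a region counts once however many matches it holds. Other spellings of the motifs were not searched. TGANTCA reads the same on either strand.

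Among the 20 other ETS family genes, 16 had enough peaks to be tested and 0 were called. Unadjusted, 8.56% of all 15228 tested genes had an exact permutation p under 0.05, and 1 of the 16 did. That gene was ELF3, with 1 strongest peak in each wild type and heterozygous library and 2 in each homozygous one (exact permutation p = 0.0357, adjusted 0.477). The homozygous mean was above wild type at 6, below at 7 and equal at 7 of the 20. Of 17 genes for partners of ETS factors, 15 were tested and 0 called, and 10 had a higher, 3 a lower and 4 an equal mean in the homozygous libraries. The shares of all genes that were higher or lower are not given here, so neither split has a background to be read against. Unadjusted, 2 of the 15 had an exact permutation p under 0.05, against the same 8.56% of all tested genes. They were CREBBP and TAL1. The coactivator gene CREBBP had 1, 1 and 1 in the wild type, 2, 3 and 2 in the heterozygous and 3, 3 and 4 in the homozygous libraries (exact permutation p = 0.0107, adjusted 0.477). The erythroid factor gene TAL1 had 2, 2 and 2 in the wild type, 1, 2 and 1 in the heterozygous and 4, 5 and 3 in the homozygous libraries (exact permutation p = 0.0143, adjusted 0.477), so all homozygous libraries were above the other 6. At SRF, which binds DNA with ELK3, all 9 libraries had 3.

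Likeness was measured as Pearson's r over the 9 libraries between the summed percentiles of the strongest peaks of 2 genes on different chromosomes. The most similar gene was CAV2 for FLI1 (r = 0.935), MYPN for ETS1 (r = 0.938), STMN2 for ETS2 (r = 0.963), HMSD for ELF1 (r = 0.915), SLC39A1 for ETV6 (r = 0.930), SUCLA2 for SPI1 (r = 0.915), LCLAT1 for GABPA (r = 0.928) and TACR1 for ELK3 (r = 0.941). Each was the best of 4225 to 4504 genes, over libraries that share genotype and, in 2 pairs, intervals.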

How the data were processed

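Each of the 9 ATAC-seq libraries has 1 deposited peak list, in GRCh37 coordinates and counted here from 1. The submitters' processing notes name cutadapt, Bowtie2 2.2.9, Picard and MACS2 2.1.0, without settings. Each peak has a fold enrichment, deposited by the authors and read as a linear ratio over local background. It also has a −log10 p and a −log10 q deposited by the authors, and a deposited display score, which was not used. Most intervals are windows of 500 bp, and 17.2% to 19.2% per list are longer, joined windows with averaged values, so broad peaks may rank lower. Whether reads were shifted for Tn5 is not given in the sources used here.

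The 50000 peaks with the highest −log10 p on chromosomes 1 to 22 and X were taken from each list and merged by any overlap. Genes and 78394 start sites came from GENCODE release 44 on GRCh37. The exact permutation test compared the sum of squares between genotypes over 280 assignments of libraries. It was two-sided in effect and adjusted by Benjamini-Hochberg over all regions, or over genes with a mean of at least 1 peak. limma 3.58.1 was added after the data were seen, on percentiles or on log2(number + 1). It took each assigned percentile of 0 as a measured value. Lists sharing intervals were averaged into 7 sources (35 assignments). The members, gene lists, motifs and tests were chosen with earlier results of these data known. Named regions were, for each gene, the promoter region and the 2 distal regions with the highest mean percentile, and each region present in 3 of 3 libraries of one genotype and 0 of 3 of another. One of the named regions at ETS2 is not reported here, so the text does not give all of that gene's regions. Scripts were tested on simulated data. Alternatives covered list length, ranking, flank, presence, libraries and test.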

Additional observations from a re-analysis of the deposited data

How the results depend on the processing

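The number of regions differing in presence between homozygous and wild type libraries (1) became 2 of 20 with the 20000 strongest peaks (6.32% of all regions), 2 of 93 with the 100000 strongest (4.17%), 6 of 225 with full lists (3.31%), 2 of 58 with a flank of 25 kb (6.22%), 0 of 27 with peaks at −log10 q of at least 5 (6.71%), and 0 of 42 with absence required in the full list (0.580%). It was 1 to 4 with a library left out. Between heterozygous and wild type (1) it was 0 of 15 with the 20000 strongest (1.16%), 0 of 83 with the 100000 strongest (0.692%), 0 of 29 with −log10 q of at least 5 (1.03%), 0 of 40 with absence in the full list, 2 of 39 when ranked by fold enrichment (0.919%), and 1 to 6 with a library left out. Between homozygous and heterozygous (2) it was 1 of 22 with the 20000 strongest (6.55%), 1 of 28 with −log10 q of at least 5 (6.41%), 1 of 45 with equal numbers per chromosome (6.56%), 1 of 40 with a flank of 2 kb (6.57%), 4 of 102 with the 100000 strongest (4.12%), 5 of 230 with full lists (2.75%), 0 of 45 with absence in the full list (0.934%), and 2 to 4 with a library left out.

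The exact permutation test called 0 genes and 0 regions after adjustment under the alternatives run, with a library left out included. limma called 470 genes and 3685 regions, or 3162 regions with 1 library per source, and 2180 to 8379 with a library left out. Replicate numbers did not pair the libraries: 1 of 9 same-numbered pairs had a correlation of deviations over 0.1 (range −0.304 to 0.178). With the replicate block the exact test called 0 genes (110 at an unadjusted p under 0.05) and 0 regions (2814).

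For the 7 genes whose homozygous minus wild type number of strongest peaks was not 0, the sign was kept in 117 of 140 alternatives, the value was 0 in 13 and the sign changed in 10. The 117 include settings that cannot change the value. These are leaving out a heterozygous library, the replicate block, and testing genes with a mean under 1 peak as well. SPI1, at 0, ranged from −0.333 to 2. Counting by source compares the homozygous libraries with the mean of all other sources, heterozygous ones included, and so is another contrast. The values of opposite sign were ELF1 at −1 with the 20000 strongest, −2.67 with full lists, −1.33 with −log10 q of at least 5 and −0.583 by source; ELK3 at 0.667 with the 100000 strongest, 0.333 by fold and 0.5 by source; ETS2 at −0.333 with −log10 q of at least 5; FLI1 at 0.667 with 25 kb, 0.417 by source and 0.167 without homozygous replicate 1; GABPA at −1.33 with 25 kb and −0.167 by source; and ETS1 at −0.333 without wild type replicate 2 (up to 2.17 without wild type replicate 3). Region differences were followed at the 16 regions whose percentiles did not overlap between some pair of genotypes, picked from these same data. Leaving out a heterozygous library or using the replicate block cannot change a homozygous minus wild type difference. Where these 2 genotypes did not overlap, leaving out 1 library cannot change its sign. With such alternatives included, the sign was kept in 207 of 208 that compare homozygous with wild type. The exception was ETS2 26373 bp from its start, at −0.761 points without homozygous replicate 3 (up to 22.7 without homozygous replicate 2), and by source, against heterozygous sources too, the ETV6 promoter was at −7.84. The causes were not tested. Placing the summit at the start plus the last column of the lists was not run, because that column counts from another start, and the first summit was used in its place. Without read counts, the depth behind a peak's absence is unknown.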
